A study of Mus musculus with 8 samples.

Results

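EL4 cells made to express T-bet and GATA3 together were compared with EL4 cells carrying marker proteins alone, to describe the genes and pathways of a hybrid TH1/TH2 factor state. The comparison took the 2 samples labelled T-bet + GATA3 and the 2 samples labelled GFP + Plum, 4 of the 8 RNA-seq samples of the series, chosen by label. EL4 is a C57BL/6 mouse T lymphoblast line that expresses its own Gata3. GFP + Plum cells carried both fluorescent markers and no introduced factor, and T-bet + GATA3 cells carried FLAG-tagged T-bet and HA-tagged GATA3. The other samples were the single-factor lines T-bet + Plum (FLAG-T-bet) and GFP + GATA3 (HA-GATA3), also 2 each. All cells had been stimulated with PMA at 50 ng/ml and ionomycin at 1 µM for 4 hours before polyadenylated RNA was extracted. Each line is 1 transduced cell population, the factors were expressed from retroviral vectors, and the replicates are harvests of that line on different days. The p-values below therefore measure the spread between harvests and not between independently made lines.

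T-bet, encoded by Tbx21, is the lineage-defining factor of type 1 helper (TH1) cells, which secrete interferon-γ (IFNγ) and act against intracellular microbes. GATA3 defines type 2 helper (TH2) cells, which secrete IL-4, IL-5 and IL-13, and it is also needed earlier for T cell development. The programmes are commonly described as antagonistic, yet cells that contain both proteins occur among activated T cells, which is why a line carrying both is of interest.

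Estimated counts were summed per gene and are given as CPM, counts relative to the scaled library size, in the order replicate 1 and replicate 2. The 4 libraries held 9807870 to 16003500 estimated counts, so that 3 counts, taken as the detection floor in each library, corresponded to 0.186 to 0.324 CPM. Changes are log2 fold changes (log2 FC) of T-bet + GATA3 over GFP + Plum with their standard error, and a gene was called at an edgeR false discovery rate (FDR) of 0.05 or less and a log2 FC beyond 1.5 in either direction. Where both libraries of a line lay at or under the floor, the change is a bound against 3 counts per library ("at least"). Mitochondrial genes took 2.30 to 2.88% of the counts and ribosomal protein genes 4.30 to 5.44%. T cell markers were present in both lines, with a summed level of 1950 to 1967 CPM in GFP + Plum and 2501 to 2802 CPM in T-bet + GATA3, with Cd3d, Cd3e and Cd3g all detected. Of 8 B cell markers 1 passed the filter (summed level 1.06 to 1.66 CPM over the 4 libraries), and Cd79b was at 0. Of 10 myeloid markers 3 passed (summed level 2.79 to 4.58 CPM in GFP + Plum and 2.92 to 2.93 CPM in T-bet + GATA3), and Csf1r and S100a8 were at 0. Of these 3, Lyz2 was called lower, at 0.743 and 0.761 against 0.108 and 0.0665 CPM, a call that ended in all 8 fits without 1 sample. Of 8 stromal markers 3 passed and none was called, with Col3a1, Pdgfrb and Epcam at 0 and a summed level of 99.9 and 192 CPM in GFP + Plum against 47.2 and 109 CPM in T-bet + GATA3, mostly Acta2. No erythroid marker passed. In bulk RNA, a change in the number of cells that express a gene and a change in the RNA per cell cannot be told apart.

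The introduced genes followed the labels. Tbx21 (GRCm38 chr11:97098071-97115331, minus strand) measured 3.59 and 1.78 CPM in GFP + Plum and 135 and 160 CPM in T-bet + GATA3. Gata3 (chr2:9857078-9890034, minus strand) measured 39.8 and 53.3 CPM in GFP + Plum and 204 and 165 CPM in T-bet + GATA3. Tbx21 therefore went from near absence to a high level, whereas Gata3 was raised on top of a level that EL4 cells already had. The log2 FC was 5.77 ± 0.29 for Tbx21 (edgeR FDR = 6.74e-05) and 1.98 ± 0.21 for Gata3 (edgeR FDR = 0.00166). Fragments of the introduced and the endogenous copies are not separated in these counts.

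Of 14791 genes that passed the filter on low counts, 386 were called (2.61%), 287 higher (1.94%) and 99 lower (0.669%) in T-bet + GATA3, while the median log2 FC over all tested genes was 0.00. By the FDR alone 721 genes passed. The median log2 FC was 3.24 over the called rises and -2.67 over the called falls, or 2.89 and -2.37 with bounded genes at their bound. In 72 of the 287 rises, GFP + Plum was at or under the floor in both libraries, and in 16 of the 99 falls T-bet + GATA3 was. Among the called genes 344 were protein coding (254 higher and 90 lower). The plot of change against level shows the named members of this response. The count depended on the samples kept, ranging from 260 to 354 when 1 of the 8 samples was left out.

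**Figure D1:**
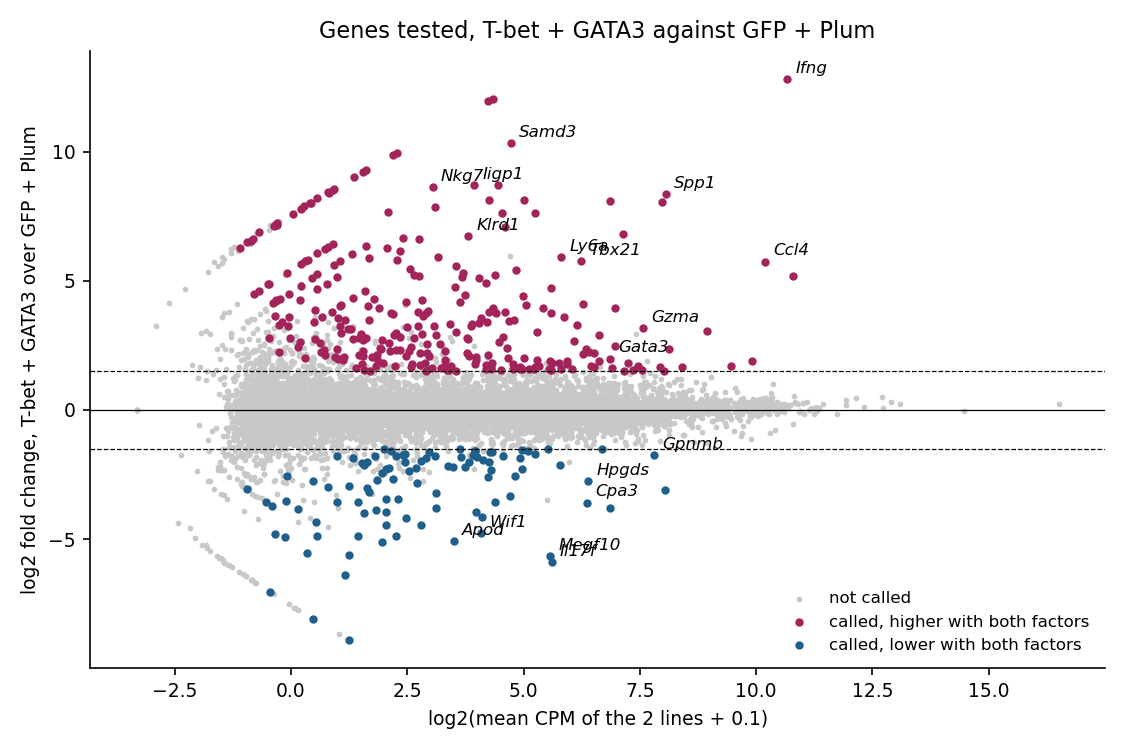
Log2 FC of T-bet + GATA3 over GFP + Plum (vertical axis) against mean level (horizontal axis, log2 of the mean CPM of both lines plus 0.1) for all 14791 tested genes, with called genes in colour and selected genes named. Dashed lines mark the fold limit. The 287 called rises include Ifng at 12.82 and the 99 called falls include Il17f at -5.89.

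The most abundant called transcripts in T-bet + GATA3 encoded chemokines, IFNγ and the intracellular phosphatase Dusp2. On the TPM scale, which corrects for transcript length and depth (mean of both samples), Ccl3 stood at 4919, Ifng at 4401, Ccl4 at 3854, Ccl1 at 3334, Dusp2 at 716 and Xcl1 at 610 TPM. In GFP + Plum the same measure was 148 TPM for Ccl3, 0.84 for Ifng, 77.2 for Ccl4, 987 for Ccl1, 246 for Dusp2 and 5.96 for Xcl1. Of these 6 genes, Ifng and Xcl1 had the lowest levels in stimulated control cells.

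More TH1 effector genes rose than fell. Of 25 listed genes 21 passed the count filter, 12 were called higher and none lower (10 to 12 higher when 1 sample was left out), and their median log2 FC was 2.93, against 0.00 over all tested genes. The filter passes a gene on the lines where it is high, so the counts and medians of all lists below describe the members and do not test them. Medians were the same to 2 decimals with bounded genes at their bound unless a second value is given. Ifng, which encodes the TH1 signature cytokine, measured 0.186 and 0.698 CPM in GFP + Plum and 3476 and 3014 CPM in T-bet + GATA3 (log2 FC 12.82 ± 0.41, edgeR FDR = 8.1e-06). Stat4, the signal transducer of the IL-12 receptor, measured 0.0619 and 0 CPM in GFP + Plum and 3.46 and 2.99 CPM in T-bet + GATA3, at least 17.2-fold higher (edgeR FDR = 0.00587). Both genes were at or near the floor in the controls and clearly above it in both T-bet + GATA3 samples. Il18r1, a chain of the IL-18 receptor, measured 2.98 and 2.16 against 19.7 and 51.7 CPM (log2 FC 3.81 ± 0.45, edgeR FDR = 0.00283), with the T-bet + GATA3 samples above the controls but far from each other. Cxcr3, the chemokine receptor that guides TH1 cells to inflamed tissue, measured 44 and 15.1 against 132 and 148 CPM (log2 FC 2.25 ± 0.45, edgeR FDR = 0.0305), a call that ended in 4 of the 8 fits without 1 sample (edgeR FDR up to 0.0957, without T-bet + GATA3 replicate 1).

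Several genes of the same list did not pass in the fit over all samples. Tnf measured 329 and 314 CPM in GFP + Plum and 349 and 340 CPM in T-bet + GATA3 (log2 FC 0.10 ± 0.12, edgeR FDR = 0.749). Csf2, encoding GM-CSF, measured 53.4 and 26.3 against 288 and 317 CPM, with an edgeR FDR of 0.0537. Its rise was called in 7 of 15 alternatives, among them a fit with the replicate number as a block (edgeR FDR = 0.00647), the fit on the samples of both lines alone (edgeR FDR = 0.0185) and DESeq2 (adjusted p = 0.0138). Il12rb1, a chain of the IL-12 receptor, passed the FDR but not the fold limit (log2 FC 1.28 ± 0.27, edgeR FDR = 0.0358). Its partner Il12rb2 was at 3.03 counts or fewer in each of the 4 libraries and was not tested, and Gzmb held 5 counts or fewer. The effector genes were thus not raised as one block, with Tnf level and Ifng at the top of the range.

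The TH2 list, in contrast, held changes of both signs. Of 34 listed genes 22 passed the filter, 7 were called higher and 2 lower, and the median log2 FC was 0.40. When 1 sample was left out, that median ranged from 0.21 (without GFP + Plum replicate 2) to 0.86 (without GFP + Plum replicate 1). The counts of called rises and falls also depended on the sample left out. Il4, the signature TH2 cytokine, was at 0 in both GFP + Plum samples and at 2.70 and 1.53 CPM in T-bet + GATA3, at least 11.3-fold higher (edgeR FDR = 0.0496, up to 0.186 without T-bet + GATA3 replicate 1). Il5 measured 1.61 and 0 against 97.2 and 5.59 CPM, with the samples of each line far from each other, and was not called (edgeR FDR = 0.0744). Il13 was at 0, 0, 0 and 6 counts and was not tested. The TH2 cytokines were therefore low or unsteady where detected, and none was called in every fit.

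TH2-associated receptors and signalling genes gave firmer rises over GFP + Plum than the TH2 cytokines. The list is set against the single-factor lines further below. Ccr8, a chemokine receptor of TH2 and regulatory T cells, measured 0.804 and 1.52 CPM in GFP + Plum and 26.4 and 24.5 CPM in T-bet + GATA3 (log2 FC 4.44 ± 0.37, edgeR FDR = 0.000594). Ccl1, its ligand, measured 473 and 334 against 1750 and 1284 CPM (log2 FC 1.91 ± 0.21, edgeR FDR = 0.00225). Il1rl1, the receptor for the alarmin IL-33, measured 0.725 and 0.773 against 3.68 and 6.67 CPM (log2 FC 2.78 ± 0.43, edgeR FDR = 0.01). In each of these genes both T-bet + GATA3 samples lay above both controls. The samples of the lines were apart in all 386 called genes and in 6413 of 14791 tested genes, so this adds nothing to the calls. Il4ra, the IL-4 receptor chain shared with IL-13, measured 6.93 and 7.17 against 26.9 and 21.1 CPM (log2 FC 1.76 ± 0.20, edgeR FDR = 0.00225). Stat5a, a transducer of IL-2 family cytokines, measured 65.4 and 70.0 against 235 and 236 CPM (log2 FC 1.80 ± 0.13, edgeR FDR = 0.000234). Among the smaller changes Stat6, which carries the IL-4 signal, was at 62.6 and 77.2 against 70.2 and 87.8 CPM (edgeR FDR = 0.665).

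Both falls in the TH2 list were large. Maf, which activates Il4 transcription in TH2 cells, measured 28.2 and 30.7 CPM in GFP + Plum and 1.5 and 2.2 CPM in T-bet + GATA3 (log2 FC -3.94 ± 0.22, edgeR FDR = 8.58e-05). Hpgds, the haematopoietic prostaglandin D synthase found in a subset of TH2 cells, measured 204 and 86.1 against 31.9 and 11.5 CPM (log2 FC -2.77 ± 0.53, edgeR FDR = 0.0236, up to 0.0677 without T-bet + GATA3 replicate 2). The lowest control sample exceeded the highest T-bet + GATA3 sample in both genes, and the lines were likewise apart in all 386 called genes. Gfi1, a repressor that supports TH2 cell growth, went the other way at 22 and 10.2 against 74.5 and 48.8 CPM (log2 FC 1.93 ± 0.35, edgeR FDR = 0.0199, up to 0.11 without T-bet + GATA3 replicate 1).

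**Figure D2:**
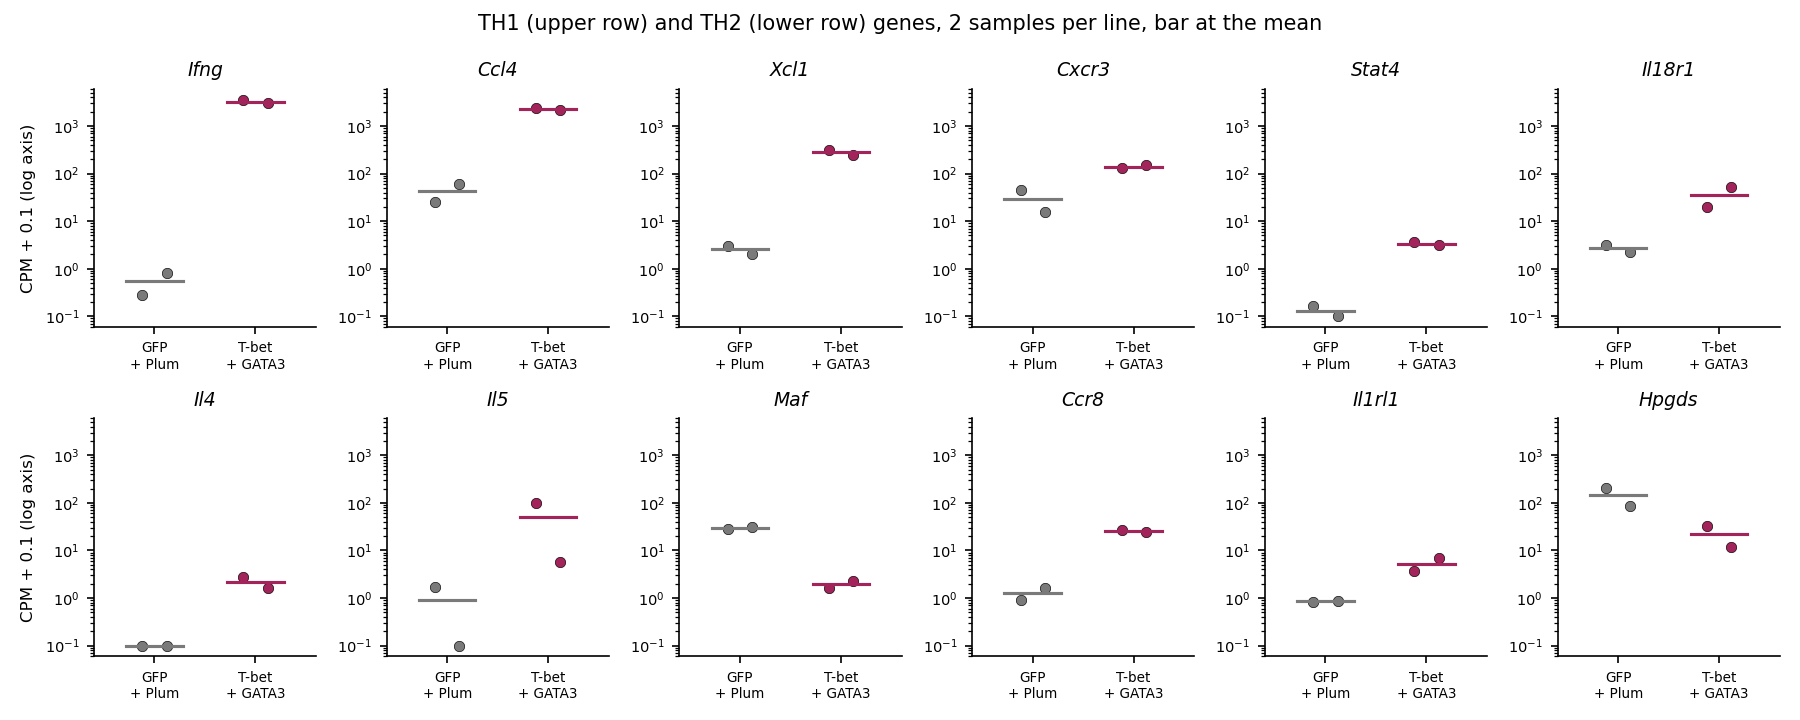
CPM of 6 TH1 genes (upper row) and 6 TH2 genes (lower row) in each GFP + Plum and T-bet + GATA3 sample, on a log axis after adding 0.1 CPM; points are samples and bars are means. Ifng went from 0.186 and 0.698 to 3476 and 3014 CPM, Ccr8 from 0.804 and 1.52 to 26.4 and 24.5 CPM, and Maf from 28.2 and 30.7 to 1.5 and 2.2 CPM.

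Other lineage transcription factors split evenly. Of 29 listed 22 were tested, 3 were called higher (Tbx21, Gata3 and Gfi1) and 3 lower, including Maf and Id2, and the median log2 FC was 0.01. Id2, an inhibitor of E proteins, measured 184 and 119 against 61.9 and 45.3 CPM (edgeR FDR = 0.0249), just past the fold limit. That call ended in 5 of 15 alternatives, among them a fit with the replicate number as a block and 3 fits without 1 sample (log2 FC as small as -1.16, edgeR FDR up to 0.105). Il17f, a TH17 cytokine gene, fell from 108 and 82.7 CPM to 1.51 and 1.66 CPM (log2 FC -5.89 ± 0.32, edgeR FDR = 8.46e-05). Rora, a TH17-associated nuclear receptor, had a log2 FC of -0.01 ± 0.18 (edgeR FDR = 0.985). The cytokine gene thus fell, and the receptor gene did not pass the test. Lef1, a factor of early T cells, was lower by less than the fold limit (log2 FC -1.35 ± 0.20, edgeR FDR = 0.00798), and Bhlhe40, a regulator of cytokine production, was higher by less than it (log2 FC 1.06 ± 0.12, edgeR FDR = 0.00202). Eomes and Foxp3 were at 0 counts in all 4 libraries.

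Chemokine genes were among the strongest rises. Of 15 listed ligands 9 were tested, 5 were called higher and none lower, with a median log2 FC of 3.74 (2.80 with bounded genes at their bound). Ccl4 (MIP-1β), an inflammatory chemokine, measured 25.5 and 59.7 CPM in GFP + Plum and 2434 and 2128 CPM in T-bet + GATA3 (log2 FC 5.74 ± 0.41, edgeR FDR = 0.000245). Xcl1 (lymphotactin), which attracts cross-presenting dendritic cells, measured 2.91 and 1.97 against 309 and 247 CPM (log2 FC 6.83 ± 0.24, edgeR FDR = 1.11e-05). Both lay far above the controls in each T-bet + GATA3 sample. Ccl5, another inflammatory chemokine, did not pass, at 36.0 and 30.2 against 89.0 and 48.5 CPM (log2 FC 1.05 ± 0.53, edgeR FDR = 0.362). Of 11 tested chemokine receptors 4 were called higher, including Ccr8, Cxcr3 and Cxcr6. That count was 2, with 1 called lower, without T-bet + GATA3 replicate 1, and 2 without either T-bet + Plum replicate.

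Many cytotoxic genes were called higher as well. Of 24 listed granule and death ligand genes 19 were tested, 11 were called higher and 1 lower, with a median log2 FC of 2.77. That median was 2.09 without T-bet + GATA3 replicate 1 and 3.05 without T-bet + GATA3 replicate 2. The counts called also depended on the sample left out. Gzmk, encoding granzyme K, measured 0.0619 and 0.127 CPM in GFP + Plum and 39.8 and 46.5 CPM in T-bet + GATA3, at least 230-fold higher (edgeR FDR = 8.58e-05). Gzma, encoding granzyme A, began higher, at 31.7 and 44.0 CPM, and reached 336 and 352 CPM (log2 FC 3.18 ± 0.18, edgeR FDR = 8.58e-05). Ctsw, a cathepsin of cytotoxic lymphocytes, measured 0.433 and 0.254 against 45.7 and 50.3 CPM (log2 FC 7.09 ± 0.36, edgeR FDR = 6.75e-05). All 3 genes rose well beyond the distance between replicates. Fasl, the death ligand of the FAS receptor, measured 1.05 and 1.01 against 8.87 and 7.78 CPM (log2 FC 3.00 ± 0.28, edgeR FDR = 0.000938). Nkg7, a granule membrane protein gene, measured 0 and 0.0634 against 20.7 and 11.8 CPM, at least 86.4-fold higher (edgeR FDR = 0.000326). The list did not move as a complete cytotoxic programme, since Prf1, encoding perforin, held 2 counts or fewer in each library and Gzmb 5 or fewer. Serpinb9, an inhibitor of granzyme B, rose from 11.5 and 8.24 to 49.4 and 31.6 CPM (log2 FC 2.03 ± 0.28, edgeR FDR = 0.00588). The 1 fall, Cst7, which encodes the protease inhibitor cystatin F, measured 58.2 and 36.5 against 17.4 and 8.78 CPM (log2 FC -1.88 ± 0.37, edgeR FDR = 0.0275, up to 0.087 without T-bet + GATA3 replicate 2).

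Many tested receptor genes of natural killer (NK) cells were called higher in the fit over all samples. Of 21 listed symbols 15 were tested, 10 were called higher and 1 lower, and the median log2 FC was 3.24 (3.15 with bounded genes at their bound). Fewer were called higher in some fits without 1 sample, where the median log2 FC ranged from 3.07 to 4.21. Klrd1 and Klrc1 encode CD94 and NKG2A, which pair as an inhibitory receptor for non-classical MHC class I. Klrd1 measured 0.186 and 0.317 CPM in GFP + Plum and 34.1 and 20.9 CPM in T-bet + GATA3 (log2 FC 6.72 ± 0.66, edgeR FDR = 0.00128). Klrc1 measured 0.433 and 0.317 against 74.7 and 75.6 CPM (log2 FC 7.61 ± 0.38, edgeR FDR = 6.74e-05). Both chains of the heterodimer were thus detected in the same samples, although Klrc1 shares sequence with Klrc2 and the division of fragments between them is uncertain. Samd3, placed in the list for its expression in NK cells, measured 0.0619 and 0 against 70.7 and 34.8 CPM, at least 281-fold higher (edgeR FDR = 0.000143). Slamf7, a SLAM family receptor, measured 2.23 and 3.30 against 28.8 and 23.7 CPM (log2 FC 3.24 ± 0.23, edgeR FDR = 0.000259). Cd160, a receptor for HVEM carried by NK and T cells, measured 8.54 and 8.44 against 182 and 111 CPM (log2 FC 4.10 ± 0.27, edgeR FDR = 0.000203). Fcer1g, the signalling γ-chain of Fc and some NK receptors, fell from 39.2 and 25.4 to 2.60 and 1.20 CPM (log2 FC -4.16 ± 0.38, edgeR FDR = 0.000916). The named receptor genes and this adaptor gene therefore changed in opposite directions.

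Genes induced by interferons were called in 1 direction. Of 42 listed interferon-induced genes 38 were tested, 19 were called higher and none lower, 37 had a positive log2 FC and the median was 2.06. Without T-bet + GATA3 replicate 1 the count of called rises was 12. Iigp1, an immunity-related GTPase that acts on pathogen vacuoles, measured 0.153 and 0 CPM in GFP + Plum and 23.6 and 36.9 CPM in T-bet + GATA3, at least 161-fold higher (edgeR FDR = 0.000234). Igtp, of the same GTPase family, measured 0.926 and 0.698 against 19.4 and 24.8 CPM (log2 FC 4.75 ± 0.35, edgeR FDR = 0.00028). Gbp2, a guanylate-binding protein, measured 0.433 and 2.16 against 49.8 and 61.0 CPM (log2 FC 5.42 ± 0.50, edgeR FDR = 0.00097). These GTPase genes are typical responders to IFNγ. The lines did not overlap in them, which held for all 386 called genes and for 6413 of 14791 tested genes. Genes better known from type I interferon responses were called in part. Zbp1, a sensor of nucleic acids, and Isg20, an exonuclease, were called higher in every fit (log2 FC 3.48 and 2.05, edgeR FDR = 0.0064 and 0.000926). Oasl2 and Ddx58 (RIG-I) were called as well (log2 FC 2.35 and 1.52), but not in 5 and 2 of the 8 fits without 1 sample. Ifit1, Irf7, Mx2 and Rsad2 had log2 FC values of 3.26, 2.39, 2.25 and 1.69 and did not pass (edgeR FDR = 0.0537, 0.0712, 0.0784 and 0.0798). Others were closer to the controls. Ifit2 measured 1.92 and 1.46 against 2.05 and 0.798 CPM (log2 FC -0.30 ± 0.51, edgeR FDR = 0.835) and Usp18 3.59 and 4.25 against 7.57 and 5.65 CPM (log2 FC 0.74 ± 0.27, edgeR FDR = 0.191). Isg15, a ubiquitin-like modifier, was called at 1.73 and 1.5 against 10.9 and 5.72 CPM (log2 FC 2.33 ± 0.38, edgeR FDR = 0.012, up to 0.0586 without GFP + Plum replicate 2). Tgtp1 and Tgtp2 are near-identical neighbours, so their split is uncertain, and both were at 0 in the controls and called higher.

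In the IFNγ signalling pathway itself, 14 of 16 listed genes were tested, 2 were called higher and 1 lower. These counts were unsteady, with 0 to 3 called higher and 0 or 1 lower when 1 sample was left out. Ifngr1, the ligand-binding receptor chain, measured 28.6 and 23 CPM in GFP + Plum and 25.2 and 24.1 CPM in T-bet + GATA3 (log2 FC -0.07 ± 0.15, edgeR FDR = 0.878). Ifngr2, the signalling chain, measured 6.77 and 4.37 against 0.976 and 0.336 CPM (log2 FC -3.19 ± 0.56, edgeR FDR = 0.017, up to 0.0792 without T-bet + GATA3 replicate 2). The binding chain was thus level between the lines and the signalling chain low in T-bet + GATA3. Irf1, a transcription factor induced by IFNγ, measured 8.98 and 8.63 against 31.1 and 24.9 CPM (log2 FC 1.67 ± 0.16, edgeR FDR = 0.00121), a call that fell under the fold limit without T-bet + GATA3 replicate 1 (log2 FC 1.47).

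In the MHC class I pathway, a target of IFNγ in many cell types, 2 genes rose (1 to 3 when 1 sample was left out). All 22 listed genes were tested, 21 had a positive log2 FC with a median of 0.91, and 8 passed the FDR of 0.05, but only H2-T22 and Psmb10 also passed the fold limit. H2-T22, a non-classical class I gene, measured 26.0 and 23.5 CPM in GFP + Plum and 73.3 and 70.1 CPM in T-bet + GATA3 (log2 FC 1.53 ± 0.12, edgeR FDR = 0.000434). Psmb10, an immunoproteasome subunit, measured 12.0 and 19.3 against 40.3 and 53.1 CPM (log2 FC 1.58 ± 0.24, edgeR FDR = 0.00882). The former call ended without T-bet + GATA3 replicate 1 or GFP + Plum replicate 2 and the latter without GFP + Plum replicate 1 or T-bet + GATA3 replicate 2, all by the fold limit (lowest log2 FC 1.47 and 1.28). Tap1, a subunit of the peptide transporter, measured 16.3 and 19.2 against 37.2 and 53.5 CPM (log2 FC 1.36 ± 0.19, edgeR FDR = 0.00663). B2m, the light chain of class I, was already abundant at 1296 and 1196 CPM and measured 1637 and 1466 CPM (log2 FC 0.32 ± 0.12, edgeR FDR = 0.216).

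**Figure D3:**
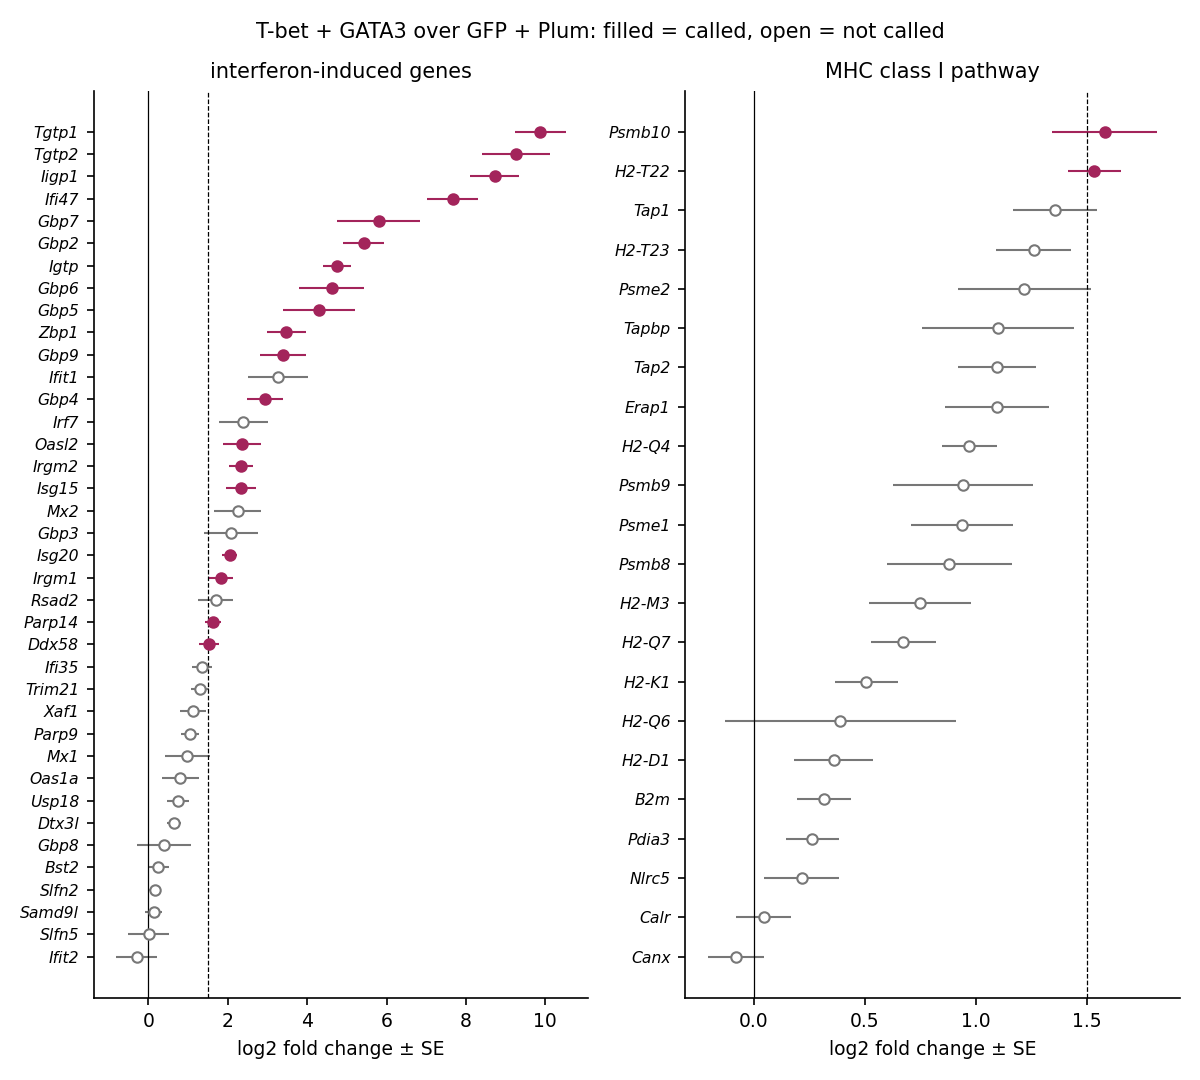
Log2 FC of T-bet + GATA3 over GFP + Plum with its standard error for the 38 tested interferon-induced genes and the 22 genes of the MHC class I pathway; filled points passed both thresholds. Called genes number 19 in the first list and 2 in the second, and 21 of the 22 class I points lie above 0.

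Activation receptors and signalling genes changed in part. Of 16 tested costimulatory genes 3 were called higher, among them Tnfrsf4 (OX40), at 5.51 and 3.55 CPM in GFP + Plum and 69.6 and 31.5 CPM in T-bet + GATA3 (log2 FC 3.47 ± 0.43, edgeR FDR = 0.0036). Tnfrsf18 (GITR), its neighbour and fellow costimulatory receptor, measured 4.27 and 1.40 against 71.9 and 49.3 CPM (log2 FC 4.41 ± 0.47, edgeR FDR = 0.00178). Cd28, the principal costimulatory receptor, was at 103 and 96.4 against 143 and 134 CPM (log2 FC 0.48 ± 0.15, edgeR FDR = 0.126). Of 11 tested inhibitory genes Cd160 alone was called (2 genes without GFP + Plum replicate 1), whereas Pdcd1, encoding PD-1, measured 315 and 381 against 302 and 329 CPM (edgeR FDR = 0.71). Cd2, an adhesion receptor and the single called gene among 10 tested T cell markers, measured 1.55 and 1.65 against 9.95 and 14.6 CPM (log2 FC 2.94 ± 0.27, edgeR FDR = 0.000938). Nr4a3, an orphan nuclear receptor induced by antigen receptor signals, rose from 83.9 and 99.3 to 408 and 528 CPM (log2 FC 2.35 ± 0.17, edgeR FDR = 0.000254). None of 13 tested NF-κB genes was called by edgeR, although Rel, Nfkb1, Nfkbia and Nfkbie passed the FDR with changes from 0.70 to 1.29 on the log2 scale.

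Adhesion genes changed in both directions. Itgb7, the β7 integrin of gut homing, measured 27.6 and 49.7 CPM in GFP + Plum and 2.16 and 4.12 CPM in T-bet + GATA3 (log2 FC -3.57 ± 0.43, edgeR FDR = 0.00332). Itga2, a collagen-binding integrin chain also used as an NK cell marker, measured 0.25 and 0.192 against 3.35 and 4.19 CPM (log2 FC 4.06 ± 0.40, edgeR FDR = 0.00129). Gpr183, a receptor for oxysterols that positions lymphocytes in lymphoid tissue, was at least 18.6-fold higher, at 3.68 and 3.33 CPM from 0.0619 and 0 CPM (edgeR FDR = 0.00311). In this list 3 of 15 tested genes were called higher and 1 lower.

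Large rises and falls also lay outside the immune lists, some of them in genes known from other tissues, such as Gja5. Gja5, a gap junction protein of heart and vessels, measured 0.663 and 1.02 CPM in GFP + Plum and 247 and 217 CPM in T-bet + GATA3 (log2 FC 8.08 ± 0.45, edgeR FDR = 8.46e-05). Slit3, an axon guidance ligand, was at least 203-fold higher, at 33.5 and 42.6 CPM from 0.124 and 0.127 CPM (edgeR FDR = 1.61e-05). Spp1, encoding osteopontin, measured 2.78 and 0.381 against 814 and 247 CPM (log2 FC 8.37 ± 0.82, edgeR FDR = 0.00124), and its T-bet + GATA3 samples differed widely from each other. Of the 12 largest falls chosen by the naming rule, Megf10, an engulfment receptor, went from 129 and 57.7 to 2.16 and 1.60 CPM (log2 FC -5.66 ± 0.49, edgeR FDR = 0.000694). Apod, a lipocalin, went from 22.5 and 20.9 to 0.973 and 0.399 CPM (log2 FC -5.08 ± 0.34, edgeR FDR = 0.000218), and Wif1, a secreted Wnt inhibitor, from 23.3 and 41.5 to 1.08 and 1.26 CPM (log2 FC -4.76 ± 0.40, edgeR FDR = 0.000648). Cpa3, a mast cell protease gene that these control cells expressed, fell from 89.9 and 212 to 11.4 and 13.6 CPM (log2 FC -3.59 ± 0.38, edgeR FDR = 0.00181), while the other 7 mast cell and basophil markers held 3 counts or fewer in each library.

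Lists of general cell functions held no call by edgeR, a count to be read against the 2.61% called over all genes, which is under 1 gene for a list of this size. None of 17 tested glycolysis genes, 23 oxidative phosphorylation genes, 21 chromatin cofactors, 13 BCL2 family genes or 22 cholesterol synthesis genes was called, with median log2 FC values of -0.01, 0.06, -0.18, -0.04 and 0.38. Of these 5 lists, cholesterol synthesis had 6 genes, the BCL2 family 3 genes and the chromatin cofactors 1 gene past the FDR alone. Cell cycle genes lay lower without passing, with 25 of 27 negative and a median of -0.54. Top2a, a topoisomerase of dividing cells, measured 579 and 789 CPM in GFP + Plum and 161 and 400 CPM in T-bet + GATA3 (log2 FC -1.28 ± 0.38, edgeR FDR = 0.112). The samples of each line were unlike each other in these genes, with a summed level of 3771 and 5292 CPM in GFP + Plum and 2390 and 3651 CPM in T-bet + GATA3, so that replicate 1 was the lower in both lines. Of the 27 genes 7 were called lower when T-bet + GATA3 replicate 2 was left out, and none in the other 7 fits without 1 sample. Among 11 tested S100, annexin and galectin genes none was called, while S100a4, S100a6, Anxa1 and Anxa5 passed the FDR with log2 FC values from -1.02 to -0.88.

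Of the remaining lists, cytokine receptors had 3 of 24 tested genes called higher and 1 lower, with a median log2 FC of 0.01. Without GFP + Plum replicate 1 or T-bet + GATA3 replicate 2 none was lower, and without T-bet + GATA3 replicate 1 the counts were 4 and 2. Activation cytokines had 2 of 19 higher and 2 lower, with 1 to 3 higher and 1 or 2 lower when 1 sample was left out. Calcium and immediate early genes had 2 of 25 higher (1 without T-bet + GATA3 replicate 1), and T cell receptor genes 2 of 19 (1 without GFP + Plum replicate 1 or T-bet + GATA3 replicate 2). Prostaglandin genes had 1 of 7 lower, which was Hpgds, the Ly6 family 1 of 6 higher, which was Ly6a, and the thymocyte list none of 9 in edgeR (1 lower by FDR alone, 2 called lower without T-bet + GATA3 replicate 1 and 1 without GFP + Plum replicate 2). In the lysosome list 3 of 11 were called lower, including Atp6v0d2, a proton pump subunit, at 10.6 and 7.42 CPM in GFP + Plum and 0.547 and 0.133 CPM in T-bet + GATA3 (log2 FC -4.88 ± 0.52, edgeR FDR = 0.00189). Clec4d, a C-type lectin receptor of the same list, measured 5.57 and 9.13 against 0.865 and 0.532 CPM (log2 FC -3.43 ± 0.45, edgeR FDR = 0.00794).

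**Figure D4:**
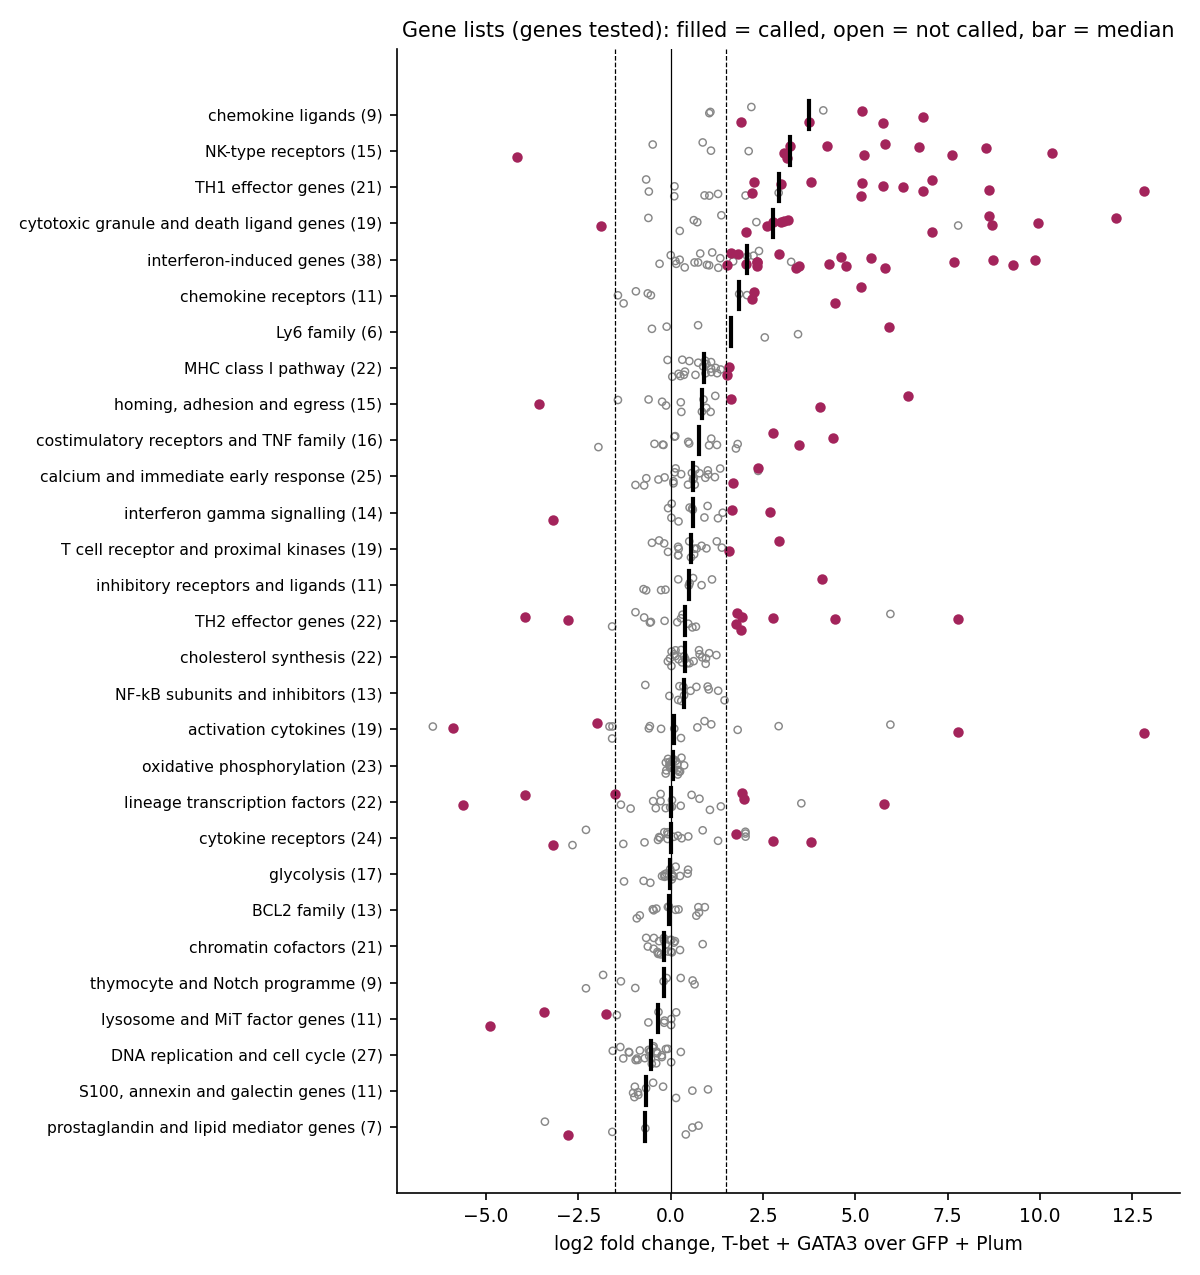
Log2 FC of T-bet + GATA3 over GFP + Plum for every tested gene of each list (points), with list medians marked and called genes in colour. The chemokine ligand, NK-type receptor, TH1 and cytotoxic lists have medians of 3.74, 3.24, 2.93 and 2.77, against 0.00 over all tested genes.

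Many rises lay side by side in the genome. Called genes within 200 kb of each other formed 14 clusters of 3 or more, with 49 genes on 10 chromosomes, and all 49 were higher in T-bet + GATA3, as were 287 of all 386 called genes. On chr6:129485244-129678973 (GRCm38, as are all coordinates here) all 5 tested genes were called, namely Olr1 and the NK receptor genes Klre1, Klrd1, Klrc2 and Klrc1. At chr11:83572919-83664683 all 3 tested genes were called, the chemokines Ccl9, Ccl3 and Ccl4. The span chr11:48861968-49096974 held the interferon-induced genes Irgm1, Tgtp1, Tgtp2 and Ifi47 and the transcript RP23-14F5.7, which were 5 of the 7 tested genes there. At chr1:173747293-173942672 lay Ifi204, Mnda and Ifi203, of the interferon-inducible p200 family, with Mnda going from 2.52 and 4.42 to 68.6 and 118 CPM (log2 FC 4.74 ± 0.38, edgeR FDR = 0.000458). The span chr17:34092340-34316674 held MHC class II genes at low levels, 4 of 9 tested being called, where H2-Aa measured 0.309 and 0.127 against 2.05 and 2.73 CPM (log2 FC 3.40 ± 0.59, edgeR FDR = 0.016, up to 0.0804 without T-bet + GATA3 replicate 2). None of these 4 calls held without T-bet + GATA3 replicate 1, and of the 8 fits without 1 sample H2-Ab1 lost its call in 8, H2-Oa and H2-Eb1 in 7 each and H2-Aa in 3. Ciita, the transactivator of class II genes, held 2 counts or fewer in each library.

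Promoter sequences are shown for 5 called genes as examples of the motif letters counted over all promoters. The windows are RefSeq sequence (GRCm38.p6), run from 250 bases before to 50 bases after the start assigned to each window, and lie on the plus strand. That start can differ from the gene start used for coordinates elsewhere, which is 43437073 for Nkg7 and 142620602 for Gbp2. In these 2 genes the marked letters lie after that gene start. Distances below are from the start of the window's own source. Capitals mark, in each window, only the motif named for it, a T-box motif (AGGTGTGA), a GATA motif (AGATAA) or an interferon-stimulated response element (ISRE, here TTTC and TTTC separated by any 2 bases), each searched on both strands, so that TCACACCT, TTATCT and a pair of GAAA are matches on the opposite strand. No motif overlaps another in these windows. Nkg7 (chr7:43436888-43437187) and Samd3 (chr10:26229457-26229756) carried the T-box letters 14 and 15 bases before the start. Ccr8 (chr9:120091883-120092182) carried the GATA letters 239 bases before it. Gbp2 (chr3:142620413-142620712) and Igtp (chr11:58199306-58199605) carried the ISRE letters 59 and 34 bases before it.
Nkg7: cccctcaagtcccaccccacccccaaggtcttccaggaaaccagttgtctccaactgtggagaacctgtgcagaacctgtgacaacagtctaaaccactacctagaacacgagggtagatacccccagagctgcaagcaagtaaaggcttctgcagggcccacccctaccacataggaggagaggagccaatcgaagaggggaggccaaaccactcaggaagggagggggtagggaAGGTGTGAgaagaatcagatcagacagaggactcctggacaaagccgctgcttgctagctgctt
Samd3: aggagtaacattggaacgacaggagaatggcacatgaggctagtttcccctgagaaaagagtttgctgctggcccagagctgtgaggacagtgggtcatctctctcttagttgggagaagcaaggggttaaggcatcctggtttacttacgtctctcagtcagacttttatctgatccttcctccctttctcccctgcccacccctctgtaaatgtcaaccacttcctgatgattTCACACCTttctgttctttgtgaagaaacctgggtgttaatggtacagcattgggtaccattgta
Ccr8: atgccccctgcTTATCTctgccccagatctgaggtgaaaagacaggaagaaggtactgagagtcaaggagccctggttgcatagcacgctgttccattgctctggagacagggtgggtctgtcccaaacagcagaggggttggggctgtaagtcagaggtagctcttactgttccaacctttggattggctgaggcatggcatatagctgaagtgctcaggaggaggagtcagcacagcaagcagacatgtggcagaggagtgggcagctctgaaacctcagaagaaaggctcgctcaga
Gbp2: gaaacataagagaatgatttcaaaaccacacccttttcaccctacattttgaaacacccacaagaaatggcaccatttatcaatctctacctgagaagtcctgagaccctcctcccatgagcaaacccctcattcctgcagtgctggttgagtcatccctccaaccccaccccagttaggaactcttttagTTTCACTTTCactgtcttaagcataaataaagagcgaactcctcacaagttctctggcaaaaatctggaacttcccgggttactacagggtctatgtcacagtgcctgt
Igtp: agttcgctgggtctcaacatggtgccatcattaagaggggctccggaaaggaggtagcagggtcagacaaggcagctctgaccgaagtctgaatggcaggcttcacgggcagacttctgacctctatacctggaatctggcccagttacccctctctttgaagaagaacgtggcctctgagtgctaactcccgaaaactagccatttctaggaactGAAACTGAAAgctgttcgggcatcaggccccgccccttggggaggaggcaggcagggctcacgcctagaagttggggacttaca

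Windows were found for 259 of the 386 called genes. The ISRE letters occurred in 10 of 15 windows of called interferon-induced genes and in 7 of 16 windows of tested members that were not called, against 3.44% of all 32851 windows. Some of these genes are neighbours of the same GTPase family. The GATA letters occurred in 3 of 12 windows of called TH2 genes and in 2 of 13 windows of those not called, against 11.2% of all windows. They also occurred in 6 of 15 windows of called and 1 of 16 of uncalled interferon-induced genes, 8.98% of windows of called rises and 14.9% of windows of called falls. The T-box letters were rare, in 1.17% of windows of called rises, 1.15% of windows of called falls (3 and 1 windows) and 1.28% of all windows. The AP-1 letters (TGACTCA) occurred in 9.38% of windows of called rises and 5.20% of all windows. Over the 10724 windows of tested genes alone, from which the calls come, the shares were 3.11% for ISRE, 6.56% for GATA, 0.83% for T-box and 3.85% for AP-1. A match is a description of these letters in this window.

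The same T-bet + GATA3 samples were set against each single-factor line to see which values were matched by 1 factor. These comparisons share the T-bet + GATA3 samples with the comparison above and are therefore given as values side by side. Against GFP + GATA3, edgeR called 421 of 14791 genes (2.85%), and 296 of the 386 genes were among them. Against T-bet + Plum it called 5 genes (0.0338%), with 559 at an unadjusted p below 0.05. DESeq2 called 23 genes in that comparison, and edgeR called 1 without either T-bet + Plum replicate, 2 without T-bet + GATA3 replicate 1 and 3 without either GFP + GATA3 replicate, but 8 without either GFP + Plum replicate. Against GFP + GATA3 the count was 230 and 197 without GFP + GATA3 replicate 1 and 2. A p that misses the threshold does not show that the lines with T-bet are alike.

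The 5 genes called against T-bet + Plum are named for that reason, after their values were seen. The first was Gata3 itself, at 25.8 and 34.9 CPM in T-bet + Plum and 283 and 326 CPM in GFP + GATA3. Gpnmb, a glycoprotein of lysosome-related organelles, fell from 361 and 329 CPM in GFP + Plum to 98.2 and 107 CPM in T-bet + GATA3 (log2 FC -1.75 ± 0.12, edgeR FDR = 0.000234). It was lower still in T-bet + Plum, at 31.7 and 28.7 CPM, and higher in GFP + GATA3, at 611 and 664 CPM. The line with both factors was thus between the single-factor lines for Gpnmb and differed from T-bet + Plum by 1.77 ± 0.13 on the log2 scale (edgeR FDR = 0.0045). Mrgprx1, an itch receptor gene of sensory neurons, was at 0 in both GFP + Plum samples and at 5.41 and 4.39 CPM in T-bet + GATA3, at least 26.1-fold higher, and its log2 FC over T-bet + Plum was 5.63 ± 0.53 (edgeR FDR = 0.0395). The Mrgpr genes are similar in sequence, so the assignment of fragments to this member is uncertain.

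The remaining pair of genes, both unnamed transcripts on chromosome 8, were lower with both factors than in any other line. RP23-115O21.3 (chr8:123165255-123178765) measured 469 and 478 CPM in GFP + Plum and 55.6 and 55.6 CPM in T-bet + GATA3 (log2 FC -3.09 ± 0.16). It measured 367 and 455 CPM in T-bet + Plum and 218 and 263 CPM in GFP + GATA3, and the log2 FC of T-bet + GATA3 over T-bet + Plum was -2.89 ± 0.16 (edgeR FDR = 0.000973). RP23-359B23.11 (chr8:85125872-85132289) measured 28.8 and 36.7 CPM in GFP + Plum and 5.87 and 6.98 CPM in T-bet + GATA3 (log2 FC -2.34), and differed from T-bet + Plum by -2.33 ± 0.22 (edgeR FDR = 0.0164). The departure of T-bet + GATA3 from the sum of the single-factor effects was tested by an interaction term for every gene. No gene passed in edgeR, where the lowest FDR was 0.212 (RP23-115O21.3, -1.91 ± 0.21 on the log2 scale) and 381 genes had an unadjusted p below 0.05. DESeq2 called 15 genes, edgeR without the filter on low counts 145, edgeR without T-bet + GATA3 replicate 2 gave 3 and edgeR without GFP + Plum replicate 1 gave 1.

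Further members, chosen after their values were seen, had their most extreme level in the line with both factors without being called against T-bet + Plum. Ly6a, encoding the surface protein Sca-1, measured 1.84 and 1.77 CPM in GFP + Plum and 123 and 97.2 CPM in T-bet + GATA3 (log2 FC 5.91 ± 0.24, edgeR FDR = 2.05e-05). It measured 31.2 and 42.9 CPM in T-bet + Plum and 10.2 and 11.2 CPM in GFP + GATA3, and the difference from T-bet + Plum was 1.56 ± 0.19 on the log2 scale (edgeR FDR = 0.0708). Gzma measured 138 and 159 CPM in T-bet + Plum and 73.6 and 80.8 CPM in GFP + GATA3, below its 336 and 352 CPM with both factors (edgeR FDR = 0.116 against T-bet + Plum). Ccr8 measured 6.60 and 10.4 CPM in T-bet + Plum and 1.34 and 2.03 CPM in GFP + GATA3 (edgeR FDR = 0.479 against T-bet + Plum). In these 3 genes both samples with both factors were above all 6 other samples. Il17f showed the mirror order, at 6.35 and 10.1 CPM in T-bet + Plum and 45.3 and 32.7 CPM in GFP + GATA3 (edgeR FDR = 0.116 against T-bet + Plum). By list, 16 of 21 tested genes in the TH1 list and 15 of 38 in the interferon-induced list were called against GFP + GATA3. In the cytotoxic list it was 11 of 19, in the NK receptor list 9 of 15 and in the TH2 list 9 of 22, against 2.85% of all tested genes. No gene of these lists was called against T-bet + Plum, where 0.0338% of all tested genes were. A count of 0 is near that share for lists of this size and describes no difference between them. The summed level of the TH2 list, which includes Ccl1, was 2886 and 2366 CPM with both factors and 1643 and 1526 CPM in GFP + Plum. It was higher in T-bet + Plum, at 3711 and 3671 CPM, and lowest in GFP + GATA3, at 1272 and 1355 CPM.

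**Figure D5:**
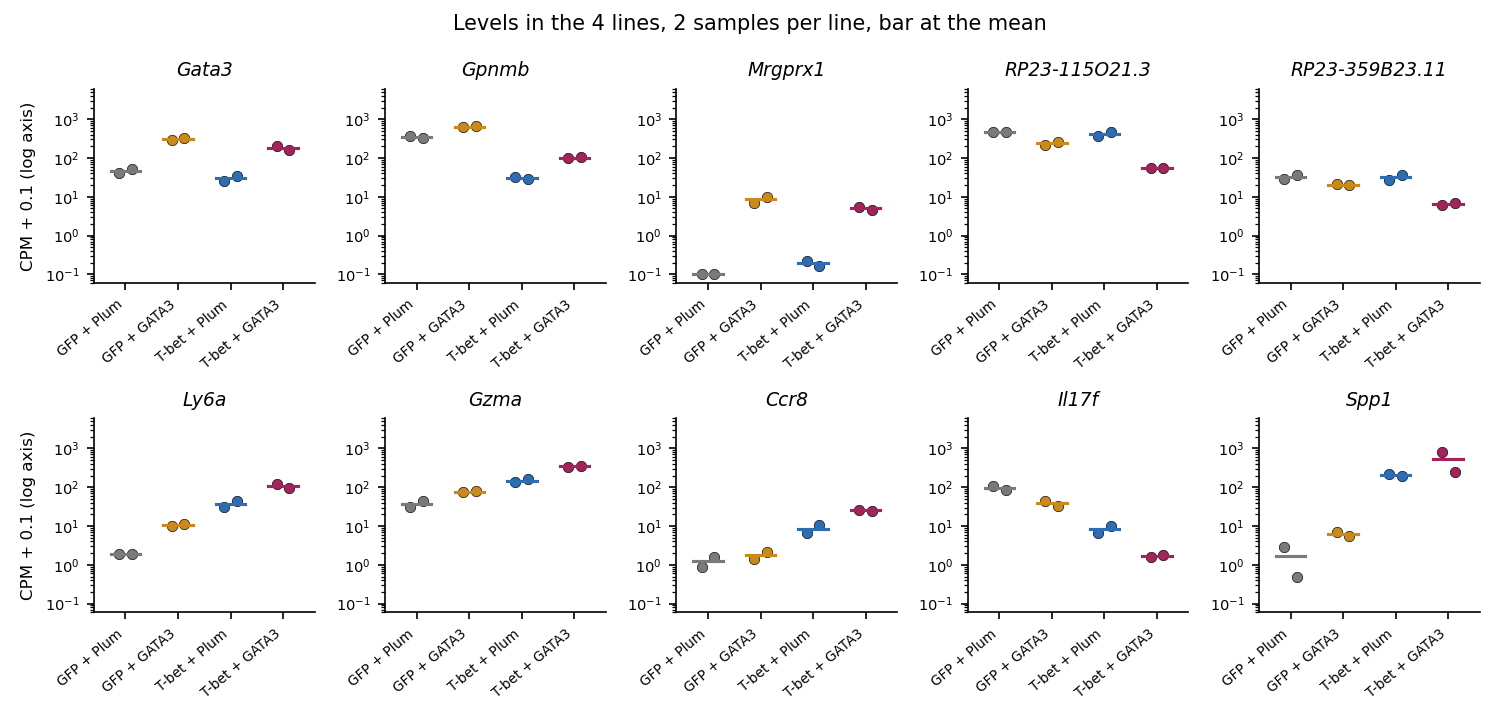
CPM of 10 genes in each sample of the 4 lines, on a log axis after adding 0.1 CPM; points are samples and bars are means. Gpnmb lies between the single-factor lines in T-bet + GATA3, RP23-115O21.3 is lowest there at 55.6 CPM in both samples, and Ly6a is highest there at 123 and 97.2 CPM.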

How the data were processed

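Per the labels and the methods of the study, polyadenylated RNA from stimulated EL4 lines was sequenced with paired-end reads. The authors examined reads with FastQC, trimmed them with Trim Galore and quantified transcripts with kallisto (mouse build mm10, versions not given in the sources used here). The deposited files hold, for 136535 Gencode transcripts per sample, estimated counts and TPM (corrected for transcript length and depth), both from the authors' kallisto runs. The study's methods and the deposited file names give different Gencode releases. Kallisto divides fragments shared by similar transcripts, which makes near-identical genes uncertain.

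Estimated counts were summed per gene (54146 genes), rounded to whole numbers, filtered by expression and scaled by TMM in edgeR 4.0.16 (R 4.3.3). One quasi-likelihood fit covered 8 samples in 4 lines, with 4 residual degrees of freedom, and p-values were adjusted by Benjamini-Hochberg over 14791 genes. Standard errors were taken from the log2 FC and its F statistic. Depth was 8038560 to 16003500 counts over the 8 samples. Replicates of a line differed beyond sampling noise (chi-square per degree of freedom 31.0 in GFP + Plum and 21.9 in T-bet + GATA3). The scripts were tested on simulated data.

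The comparison, the 29 gene lists and the 6 marker lists were chosen with earlier results of these data known. Genes named are the introduced factors, the 12 largest protein-coding rises and falls that separate the samples at 5 CPM or more, the 6 highest by TPM in each line, called list members with contrasts, and called genes in clusters. Not every gene so chosen is reported here. Alternatives were DESeq2 1.42.0 with and without transcript length offsets, library size scaling, other filters, a replicate block, only the samples compared, and each sample left out.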

Additional observations from a re-analysis of the deposited data

Results flagged for a closer look

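One transcript of Gata3 stood out in the transcript-level values, which the comparisons did not use. The Gata3 transcript RP23-276D17.1-004 was listed at 0 TPM in both GFP + Plum and both T-bet + Plum samples and averaged 37.6 TPM in T-bet + GATA3 (39.8 and 35.4 TPM), with 72.2 and 71.1 TPM in GFP + GATA3. Only the lines with introduced GATA3 held a value, among the 8 samples.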

How the results depend on the processing

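With DESeq2, DESeq2 with transcript length offsets, library size scaling and a filter on a mean of 10 counts, T-bet + GATA3 versus GFP + Plum kept a count of called genes within 1.5 times the 386 reported. The count was 762 with no filter on low counts, 721 by FDR alone, 233 when only the samples of the 2 lines were fitted, and 260 to 354 when 1 sample was left out. Library size scaling shifted the median log2 FC of all genes to -0.07 and gave 255 rises and 110 falls.

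Against T-bet + Plum the 5 calls became 23 with DESeq2, 24 with DESeq2 and offsets, 124 with no filter, 3 with only the samples compared, and 1 to 8 when 1 sample was left out. Against GFP + GATA3 the 421 calls became 813 with no filter, 854 by FDR alone and 197 to 475 when 1 sample was left out. The interaction term called 15 genes with DESeq2, 15 with DESeq2 and offsets, 145 with no filter and 0 to 3 when 1 sample was left out.

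With the replicate number as a block, calls were 464 against GFP + Plum, 4 against T-bet + Plum, 531 against GFP + GATA3 and 0 for the interaction. The labels do not say what the numbers share, and with 2 samples per line they were not taken as a pairing. The deviations of same-numbered samples correlated across genes at 0.302 between GFP + Plum and T-bet + GATA3, at 0.249, 0.149, 0.139 and 0.0590 in other pairs of lines, and at -0.0455 between T-bet + Plum and T-bet + GATA3. Of 130 named called genes, 76 were called under every alternative and none changed sign, while 53 lost the call in at least 1 fit without 1 sample, most often without T-bet + GATA3 replicate 1 (39 genes). The uncalled log2 FC of Ifngr1 ranged from -0.21 to 0.0928 when 1 sample was left out, changing sign without GFP + Plum replicate 1. With 2 samples per line and floors of 0.186 to 0.324 CPM, genes such as Il13 and Gzmb were too low to be tested.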
